A study of Mus musculus with 5 samples.

Results

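The Notch receptors and their membrane-bound ligands were followed in cells carrying the endothelial surface protein CD31 that were taken from infarcted mouse hearts at day 5. The members were taken by gene symbol, the receptors Notch1, Notch2, Notch3 and Notch4 and the ligands Dll1, Dll4, Jag1 and Jag2, and all 8 were found among the 17638 genes of the deposited table. There were 3 libraries labelled control and 2 labelled Tbx1cko, a conditional knockout of the T-box transcription factor gene Tbx1 that the series describes as endothelial. Mice of both groups had a C57BL/6 background, were 2 months old and had an infarction, so the data hold no uninjured heart. The labels do not name the Cre driver, the deleted part of Tbx1, the genotype of the controls or how many hearts went into a library. Nor do they state whether each library is a different mouse. The p-values then describe only how these libraries vary, which may be technical.

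Notch receptors are single-pass membrane proteins that are activated by ligands on a neighbouring cell. Ligand binding exposes the receptor to cleavage by an ADAM protease and then by gamma-secretase, and the freed intracellular domain joins the DNA-binding protein RBPJ to turn on genes of the Hes and Hey families. In blood vessels, Dll4 and Notch1 restrain sprouting and set arterial identity, Jag1 can oppose Dll4 at the sprouting front, Notch4 is expressed mainly in endothelium, and Notch3 is the receptor of pericytes and smooth muscle cells.

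The libraries held 14689782 to 18617284 reads. Tbx1 itself had control values of 64.4, 72.7 and 69.6 normalised reads against Tbx1cko values of 18.3 and 17.3, so the libraries went with their labels. The endothelial genes Cdh5 and Pecam1, which encodes CD31, had at least 45379 and 33715 normalised reads in every library. Other cells were present too. The macrophage gene Lyz2 ranged from 29682 to 53428, the collagen gene Col3a1 from 6679 to 13995, the cardiomyocyte gene Actc1 from 1719 to 3305, the platelet gene Pf4 from 1049 to 2923 and the B cell gene Cd79a from 106 to 190. Control replicate 2 stood apart, with a correlation of log2 values to the other libraries of 0.859 to 0.889 across genes against 0.98 to 0.988 among the rest, and its deviation followed the GC content of the transcripts (Spearman rho 0.801 across 13771 genes). The difference of each member is therefore given with and without it, and after a correction of every library for GC content.

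All 8 members were well covered, with 721 to 16634 reads per library. Comparing levels between genes requires a scale per transcript length, here normalised reads per kilobase of the longest annotated transcript. In the controls the order was Dll4 at 1612 ± 468 per kilobase (SD, n = 3), Notch4 at 1405 ± 451, Notch1 at 1108 ± 440, Jag2 at 1015 ± 413, Notch3 at 667 ± 277, Jag1 at 354 ± 19.98, Dll1 at 279 ± 63.5 and Notch2 at 107 ± 7.16. The order was the same in each of the 3 control libraries, although the steps from Dll4 down to Notch3 were smaller than the SD over libraries. The steps from Notch3 to Jag1, Jag1 to Dll1 and Dll1 to Notch2 exceeded it. In Tbx1cko, Dll4 had 1123 ± 96.2 (SD, n = 2), Notch4 1090 ± 94.95, Jag2 693 ± 2.76, Notch1 602 ± 108, Jag1 322 ± 54.2, Notch3 267 ± 17.2, Dll1 200 ± 7.65 and Notch2 104 ± 4.24. Notch1 stood below Jag2 and Notch3 below Jag1 in both Tbx1cko libraries, the reverse of the controls, and Notch4 stood above Dll4 in Tbx1cko replicate 1. The step between Jag2 and Notch1 was within the SD in both groups. With the length of all exons joined in place of the longest transcript, Jag2 was already above Notch1 in control replicates 2 and 3, while Notch3 remained above Jag1 in all 3 controls and below it in both Tbx1cko libraries. These orders are without GC correction. The Tbx1cko step from Jag1 to Notch3 was 55.5 against an SD of 54.2. After GC correction, log2 values in Tbx1cko replicate 1 were 11.20 for Notch3 (8.016 kilobases) and 10.59 for Jag1 (5.612 kilobases). Per kilobase, that places Notch3 above Jag1 in that library, while Notch3 stayed below Jag1 in Tbx1cko replicate 2.

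The comparison asked how the transcripts of these cells differed when Tbx1 was deleted. All 8 members had a negative log2 difference, Tbx1cko minus control, as did 47.6% of the 14339 genes tested. Across 13771 genes that difference followed transcript GC content (Spearman rho -0.713, and -0.305 without control replicate 2). The 47.6% is therefore not a share among genes of like GC content. After GC correction, 6 of the 8 members had a negative difference, as did 50.8% of 13771 genes. Before that correction the members' median was -0.47 and that of all genes tested was 0.03. The values did not overlap between the groups for Notch1, Notch3, Dll1, Dll4 and Jag2, which is 5 of 8, all lower in Tbx1cko, where 13.9% of all genes tested were lower without overlap. No member passed the limma test with adjustment over all genes, and neither did any other gene (0%). That includes the deleted gene Tbx1, with a log2 difference of -1.89 and a limma adjusted p of 0.762. At an unadjusted p under 0.05, 1 member, Notch3, was lower, as were 1.37% of all genes, and 250 genes passed in either direction. The edgeR test on recovered reads called 0 genes (284 at an unadjusted p under 0.05). DESeq2 called 4 (0.0279%), with Tbx1 among them (adjusted p = 0.0349) and no member. Without control replicate 2, limma called 3 genes (0.0209%), again no member. In bulk RNA, fewer cells of a type and less RNA per cell cannot be told apart.

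**Figure D1:**
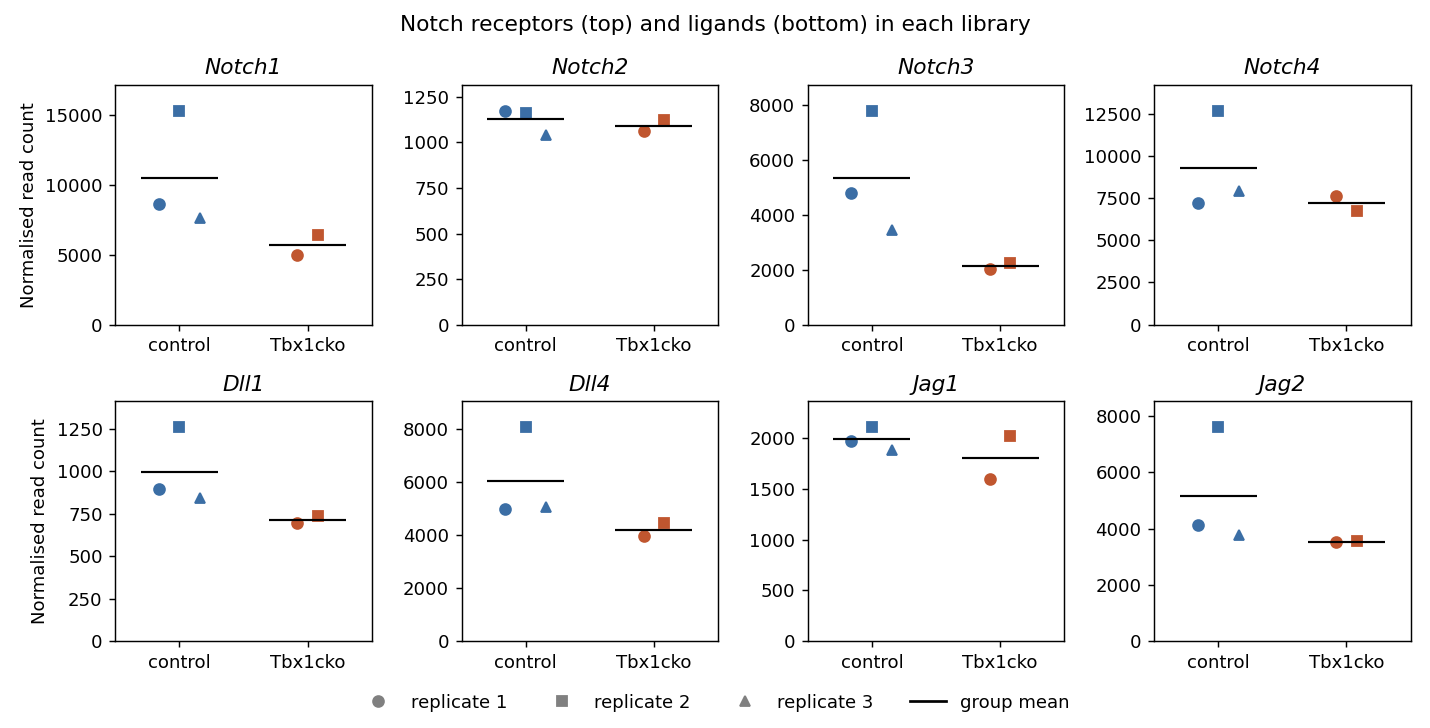
Normalised read count of each Notch receptor (top row) and ligand (bottom row) in the 3 control and 2 Tbx1cko libraries, on axes that start at 0. Each point is a library, its shape gives the replicate number and the line is the group mean. Control replicate 2 was the highest library for 7 of the 8 members, all but Notch2, as it was for 41.1% of all genes, and the Tbx1cko points of Notch1, Notch3, Dll1, Dll4 and Jag2 lie below all control points.

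Notch3, the mural cell receptor, had the most negative difference of the members. Its normalised reads were 4802, 7785 and 3443 for control against 2040 and 2235 for Tbx1cko, each in replicate order. Both Tbx1cko libraries lay below the lowest control. The log2 difference was -1.24 (SE 0.366, 95% interval -2.16 to -0.32), or 2.36-fold lower, with an unadjusted p of 0.0170 and a limma adjusted p of 0.762. Only 0.614% of the genes tested had a lower value. Without control replicate 2 the difference was -0.93 (95% interval -1.27 to -0.59), with a limma adjusted p of 0.169. DESeq2 without that library called Notch3 lower (adjusted p = 8.12e-05), among 0.888% of genes called, whereas edgeR on the same 4 libraries gave an adjusted p of 0.223. After GC correction the difference was -0.86 with all libraries and -0.78 without control replicate 2, and both intervals stayed below 0.

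Notch1, the main receptor of sprouting and arterial endothelium, came next. It had control values of 8648, 15300 and 7598 normalised reads against Tbx1cko values of 4988 and 6438. The groups did not overlap, with control replicate 3 closest to the Tbx1cko values. The log2 difference was -0.82 (SE 0.349, 95% interval -1.70 to 0.05), with an adjusted p of 0.762. It was -0.52 without control replicate 2 (95% interval -0.84 to -0.19, adjusted p = 0.373) and -0.52 after GC correction of all 5 libraries. Without control replicate 2, Notch1 and Notch3 were the 2 members with an unadjusted p under 0.05, both lower, beside 4.07% of all genes tested.

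Notch4 and Notch2 overlapped between the groups, and the sign of their difference changed with GC correction. Notch4, the endothelial receptor, had control values of 7227, 12672 and 7888 normalised reads against Tbx1cko values of 7624 and 6739. The Tbx1cko values lay among or just below those of control replicates 1 and 3, and only control replicate 2 was high. Its log2 difference of -0.32 (95% interval -1.05 to 0.40) was -0.07 without control replicate 2 (95% interval -0.36 to 0.21) and 0.11 after GC correction. Notch2, a widely expressed receptor, had control values of 1174, 1164 and 1039 against Tbx1cko values of 1060 and 1123, the narrowest range of the 8 members. Its log2 difference was -0.04 (95% interval -0.51 to 0.42), -0.02 without control replicate 2 (95% interval -0.30 to 0.26), and 0.15 after GC correction, so its sign depends on the scaling.

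Among the ligands, Dll4, the endothelial ligand that marks tip cells and arteries, had control values of 4999, 8069 and 5058 normalised reads against Tbx1cko values of 3955 and 4465. The groups did not overlap. Its log2 difference of -0.49 (95% interval -1.17 to 0.20, adjusted p = 0.762) was -0.26 without control replicate 2 (95% interval -0.53 to 0.01) and -0.23 after GC correction. Dll1, a ligand with a known part in arterial endothelium and postnatal artery growth, had control values of 893, 1258 and 841 against Tbx1cko values of 696 and 735, again without overlap. Its log2 difference was -0.46 (95% interval -1.08 to 0.17, adjusted p = 0.762), -0.28 without control replicate 2 and -0.22 after GC correction. The 2 Delta-type ligands kept almost the same proportion in every library, with a log2 ratio of Dll1 to Dll4 between -2.68 and -2.49.

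The Jagged ligands behaved differently from each other across libraries. Jag1, the ligand through which endothelium signals to Notch3 on mural cells, had control values of 1966, 2106 and 1885 normalised reads against Tbx1cko values of 1592 and 2023. Tbx1cko replicate 2 lay within the control range and Tbx1cko replicate 1 below it. The log2 difference was -0.14 (95% interval -0.64 to 0.35), -0.10 without control replicate 2 and -0.22 after GC correction. Jag2, a second Jagged ligand of vascular cells, had control values of 4140, 7611 and 3793 against Tbx1cko values of 3529 and 3549. The groups did not overlap, although the gap from control replicate 3 was small. Its log2 difference of -0.48 (95% interval -1.33 to 0.38, adjusted p = 0.762) became -0.16 without control replicate 2 (95% interval -0.42 to 0.10) and -0.03 after GC correction.

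**Figure D2:**
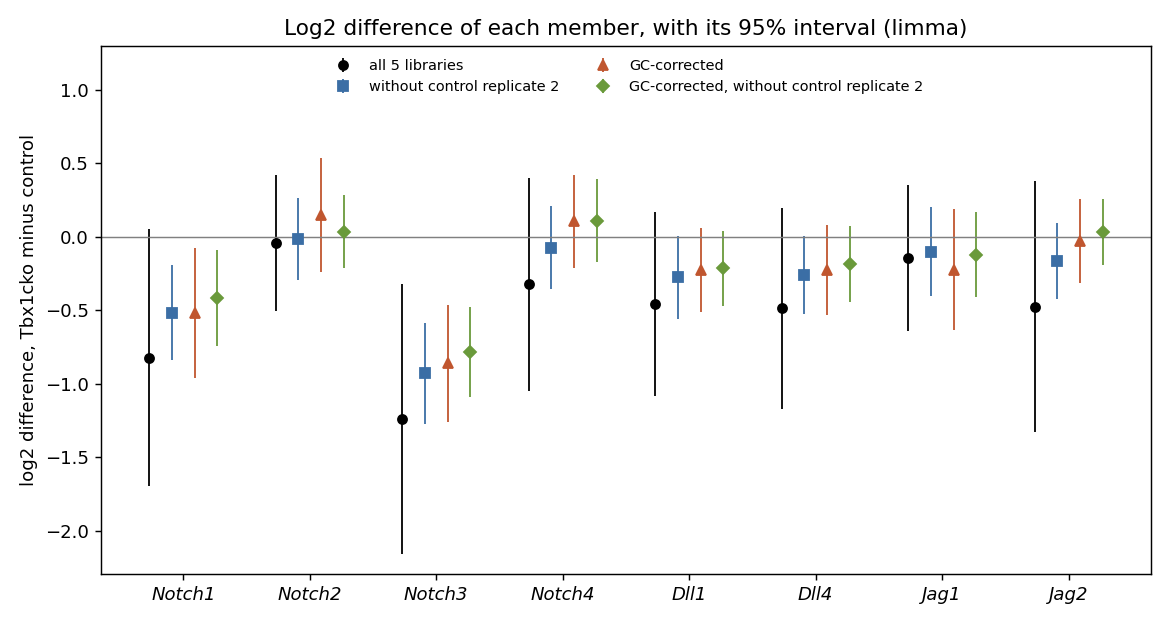
Log2 difference, Tbx1cko minus control, of each member with its 95% interval from limma, for all 5 libraries, without control replicate 2, after GC correction, and with both. The intervals of Notch3 lie below 0 in all 4 fits and those of Notch1 in 3 of the 4, while those of the other 6 members include 0 throughout.

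The excess of control replicate 2 was uneven among the members. Against the mean of the other 2 controls it was 1.92-fold for Jag2, 1.89-fold for Notch3, 1.88-fold for Notch1, 1.68-fold for Notch4, 1.60-fold for Dll4 and 1.45-fold for Dll1, but 1.09-fold for Jag1 and 1.05-fold for Notch2. The transcripts of the last 2 had the lowest GC content of the members, at 48.8% for Jag1 and 53.6% for Notch2, while the other 6 ranged from 54.9% for Dll1 to 61.9% for Jag2. After GC correction the groups still did not overlap for Notch1, Notch3, Dll1 and Dll4, 4 of 8 members, where 13% of 13771 genes were lower without overlap.

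Ratios within a library do not depend on its size factor, so the make-up of the receptors and of the ligands was compared. Per kilobase, Notch3 made up 22.0%, 21.0% and 17.0% of the summed receptor level in the controls and 12.5% and 13.4% in Tbx1cko. Notch4 made up 40.3%, 41.6% and 47.4% in the controls and 56.8% and 49.0% in Tbx1cko. Neither share overlapped between the groups. The share of Notch1 did overlap, at 33.4 ± 1.62% (SD, n = 3) and 29.2 ± 4.75% (SD, n = 2). Notch2 made up 3.48 ± 0.937% in controls and 5.04 ± 0.121% in Tbx1cko, without overlap. Dll4 made up 49.5 ± 1.06% of the summed ligand level in controls and 48.0 ± 0.811% in Tbx1cko, Jag2 30.5 ± 3.22% and 29.7 ± 1.92%, Jag1 11.3 ± 2.37% and 13.7 ± 1.38%, and Dll1 8.65 ± 0.542% and 8.55 ± 0.261%. The Dll4 share did not overlap, by a narrow gap between 48.61% in control replicate 1 and 48.59% in Tbx1cko replicate 2. With the length of all exons joined, the Jag1 share did not overlap either, at most 13.82% in controls and 13.86% and 15.85% in Tbx1cko.

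**Figure D3:**
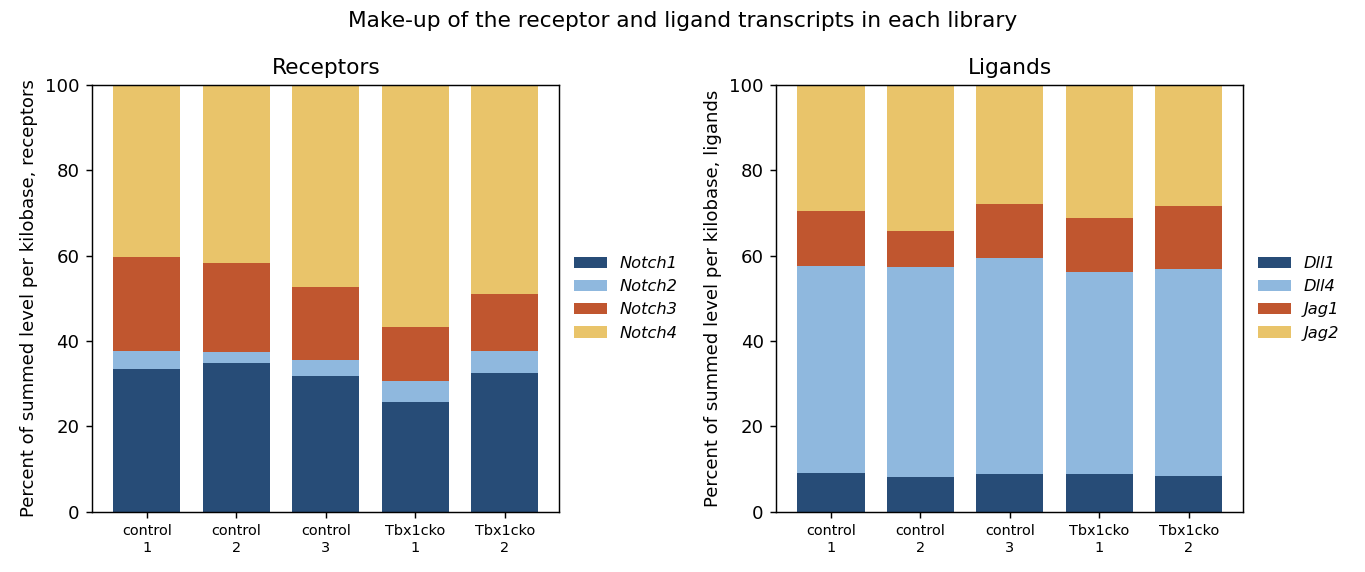
Share of each receptor (left) and each ligand (right) in the summed level per kilobase of its family, as stacked percentages for each of the 5 libraries. The Notch3 segment is 17.0% to 22.0% in the controls and 12.5% to 13.4% in Tbx1cko, and the Dll4 segment is 47.4% to 50.7% in all libraries.

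The log2 ratio of Notch3 to Notch1 was -0.85, -0.97 and -1.14 in the controls and -1.29 and -1.53 in Tbx1cko, a difference of -0.42. The ratio of Notch4 to Notch1 was -0.26, -0.27 and 0.05 in the controls and 0.61 and 0.07 in Tbx1cko, a difference of 0.50, with Tbx1cko replicate 2 barely above control replicate 3. The 2-sided exact permutation p of each was 0.2, the smallest that 3 libraries against 2 allow, and 0.28 after adjustment over the 7 ratios computed. The ratio of Notch2 to Notch1 differed by 0.78, that of Dll4 to Jag1 by -0.34 and that of summed ligands to summed receptors by 0.18, each without overlap and with the same exact p. The Dll4 to Jag1 difference was close to 0 after GC correction, at -0.00298, and that of ligands to receptors was 0.08. Leaving out control replicate 2 moved the Notch2 to Notch1 difference to 0.50 and the Dll4 to Jag1 difference to -0.16, and leaving out Tbx1cko replicate 1 moved that of Notch4 to Notch1 to 0.22. The groups overlapped for Jag2 to Jag1 (exact p = 0.6) and for Dll1 to Dll4 (exact p = 1).

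Notch3 was also set against markers of pericytes and smooth muscle cells, the cells it is known from. Of 15 such markers, 14 had a negative log2 difference, the median was -0.83, and 12 were lower in Tbx1cko without overlap, where 13.9% of all genes were. Their summed level ranged from 63850 to 74156 normalised reads in the controls and from 55734 to 59484 in Tbx1cko. No marker was at 0 in all libraries at once. Rgs5, the pericyte gene with the highest mean of the list, overlapped between the groups with control values of 35182, 8734 and 30891 against Tbx1cko values of 23353 and 27112. Without control replicate 2 the median was -0.60. In log2(normalised count + 1), Notch3 lay 1.62, 1.85 and 1.40 above the mean of these markers in the controls and 1.01 and 1.28 above it in Tbx1cko. The difference between the groups relative to the markers was -0.48 (exact p = 0.2), against -1.24 on the normalised scale. The mean of 14 pan-endothelial markers differed less, by -0.23 (exact p = 0.2), and relative to it Notch3 differed by -1.01, Notch1 by -0.59, Dll4 by -0.26 and Notch4 by -0.10. On that scale the groups overlapped for Dll4, Notch4, Jag2 (-0.25), Notch2 (0.19) and Jag1 (0.08). They did not for Notch3, Notch1 and Dll1 (-0.23). Summed levels of 4 endothelial lists were lower in Tbx1cko without overlap too. They were 237617 to 336335 normalised reads in controls against 218751 to 232690 for pan-endothelial markers, 26928 to 37806 against 24102 to 26417 for arterial markers, 27096 to 43624 against 22434 to 23023 for endocardial markers and 12487 to 16080 against 8927 to 10181 for lymphatic markers. In each of these lists control replicate 2 was the highest library, as for Notch1 and Dll4. Gene by gene, 8 of 14 pan-endothelial, 3 of 12 arterial, 5 of 10 endocardial and 5 of 9 lymphatic markers were lower without overlap. The share over all genes tested was 13.9%. Higher without overlap were 1 pan-endothelial and 1 arterial marker, beside 14.2% of all genes. Gja4, Gja5, Sox17, Efnb2, Hey1 and Hey2 are in both the arterial list and the list of Notch targets described below. The sum of 6 platelet markers was higher, 1375 to 2385 against 3239 to 3702. The part of these cells in the members' values was not tested.

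Over the 5 libraries, the genes with the profile nearest to Notch3 were Colec11, Pdgfrb, Itga7, Egr4 and Mmp11. Nearness was the root mean square difference of log2(normalised count + 1), after each gene was centred on its own mean, among 11187 other genes with a mean of at least 50. It was 0.059 for Colec11, a collectin gene, 0.089 for Pdgfrb, the platelet-derived growth factor receptor of pericytes, 0.096 for the laminin-binding integrin gene Itga7, 0.104 for Egr4 and 0.113 for the matrix metalloproteinase gene Mmp11. Pdgfrb had control values of 3161, 4413 and 2011 normalised reads against Tbx1cko values of 1345 and 1396, high and low in the same libraries as Notch3. That likeness is how these genes were chosen.

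**Figure D4:**
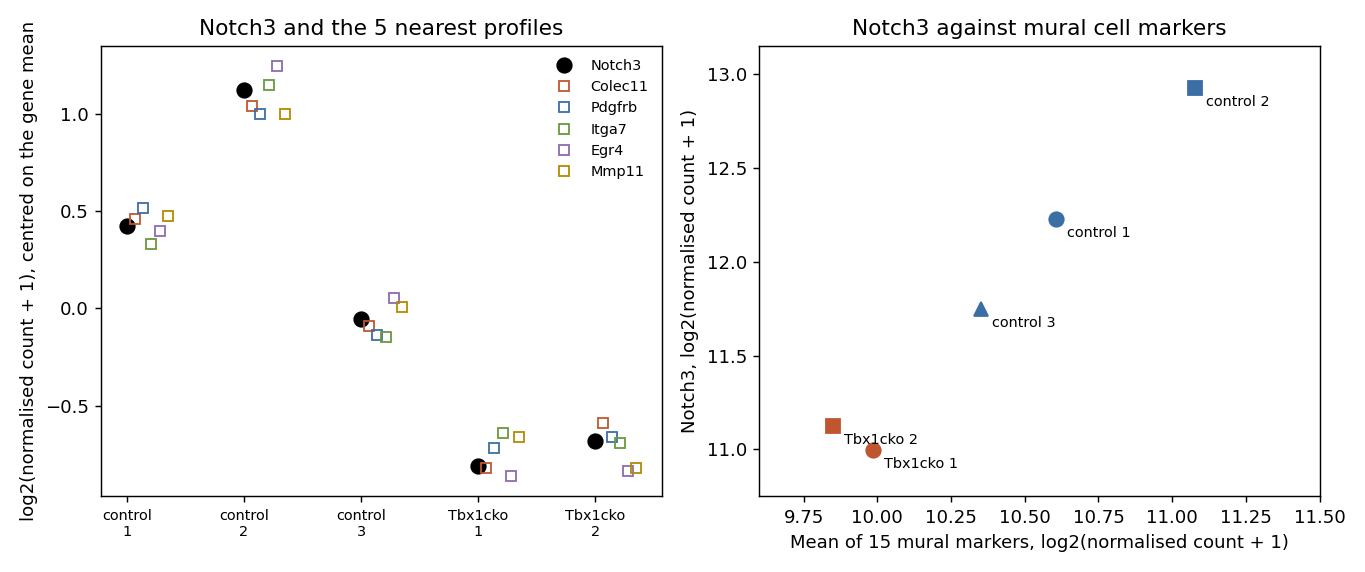
Left, log2(normalised count + 1) of Notch3 (filled circles) and of the 5 genes with the nearest profile (open squares, shifted sideways), each centred on its own mean, for each library. Right, Notch3 against the mean of 15 mural cell markers on the same log2 scale, with a point per library. The Tbx1cko libraries are lowest on both axes and control replicate 2 is highest, and with 5 libraries no correlation is given.

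The promoters of the members were read for the motifs most often tied to this pathway and to the deleted factor. RefSeq start sites on GRCm38.p6 matched all 8 genes and gave 9 windows of the 250 bases before a start, since Dll1 has 2. The RBPJ core TGGGAA, searched on both strands, was in 0 of the 9 windows, where 21.6% of 32817 windows of the same length hold it. The T-box half-site AGGTGT, also on both strands, was in 0, where 11.8% hold it. The GC box GGGCGG, a site of Sp-family factors, was found on either strand upstream of 5 of the 8 genes, Notch1, Notch2, Notch3, Dll4 and Jag2, where 32.7% of windows hold it. In Jag2 some matches share bases. GC content of the windows ran from 56.0% at a Dll1 start and 57.2% at Jag1 to 87.2% at Jag2, against a median of 52.4% over all windows. The windows of Notch1, Notch3 and Dll4 are shown because these are the receptors and the ligand with the lowest differences. They are written 5′ to 3′ along the gene's strand, ending at the base before the start, and capitals mark the GC box on either strand.
Notch1, chr2:26503823-26504072, minus strand: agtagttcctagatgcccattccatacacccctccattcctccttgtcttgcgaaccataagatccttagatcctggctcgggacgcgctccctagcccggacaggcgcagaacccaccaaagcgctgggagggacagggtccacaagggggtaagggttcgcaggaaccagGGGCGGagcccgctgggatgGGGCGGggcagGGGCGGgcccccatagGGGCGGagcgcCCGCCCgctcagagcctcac
Notch3, chr17:32166891-32167140, minus strand: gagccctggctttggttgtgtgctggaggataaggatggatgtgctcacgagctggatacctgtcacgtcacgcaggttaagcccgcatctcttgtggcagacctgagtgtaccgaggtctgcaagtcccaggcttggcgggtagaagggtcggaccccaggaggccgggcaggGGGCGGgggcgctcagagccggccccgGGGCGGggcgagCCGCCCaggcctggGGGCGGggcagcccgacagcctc
Dll4, chr2:119325534-119325783, plus strand: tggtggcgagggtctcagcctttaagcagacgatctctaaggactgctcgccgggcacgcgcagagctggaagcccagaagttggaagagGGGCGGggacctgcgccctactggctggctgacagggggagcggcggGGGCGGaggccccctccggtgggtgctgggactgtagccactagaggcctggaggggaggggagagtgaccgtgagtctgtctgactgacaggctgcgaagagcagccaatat
The Notch1 window lies upstream of the RefSeq start and within the span of a longer Notch1 model in the GENCODE M21 annotation.

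The genes themselves lie, in GRCm38 with GENCODE M21, on chromosome 2 for Notch1 (26457903 to 26516663, minus strand), Dll4 (119325784 to 119335962, plus strand) and Jag1 (137081456 to 137116644, minus strand). Notch3 (32120820 to 32166852, minus strand), Notch4 (34564268 to 34588503, plus strand) and Dll1 (15367354 to 15376872, minus strand) are on chromosome 17, Notch2 (98013527 to 98150361, plus strand) on chromosome 3 and Jag2 (112907819 to 112929776, minus strand) on chromosome 12. All are protein-coding. Exons of Notch1, Dll1 and Dll4 overlap an opposite-strand gene that is also in the table, and without a stated strand setting their reads cannot be separated. These partners had few reads, 5.65 to 13.7 normalised reads for 0610009E02Rik at Notch1, 4.60 to 26.5 for A930024N18Rik at Dll1 and 102 to 201 for Gm14207 at Dll4.

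The rest of the pathway was described from a list of 61 further genes, of which 56 were tested. Of these, 36 had a negative and 20 a positive log2 difference, with a median of -0.19, and 0 passed the adjusted limma threshold (0%). At an unadjusted p under 0.05, 2 of the 56 were counted, Dtx1 and Heyl, both lower in Tbx1cko, as were 1.37% of all genes tested. Without control replicate 2 the split was 33 to 23 and the median -0.05. The targets were the group with the lowest median among those with at least 5 members tested, at -0.435, with 10 of 11 lower. The smaller group of other ligands and ligand-like genes had -0.442, with 4 of 4 lower. The median of the targets was -0.27 without control replicate 2 and -0.30 after GC correction, and that of the ligand-like genes was -0.24 and -0.17.

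Among targets and feedback genes, Dtx1, which encodes the ubiquitin ligase Deltex, had control values of 146, 318 and 136 normalised reads against Tbx1cko values of 59.5 and 65.2. The groups did not overlap. Its log2 difference was -1.56 (SE 0.441, adjusted p = 0.762), -1.17 without control replicate 2 and -1.09 after GC correction. Heyl, a Hes-related repressor that Notch3 is known to induce in mural cells, had control values of 521, 735 and 416 against Tbx1cko values of 308 and 233, a log2 difference of -1.01 (adjusted p = 0.762) and -0.79 without control replicate 2. DESeq2 on those 4 libraries gave Heyl an adjusted p of 0.0490 and gave Dtx1 none, because its mean count fell under that tool's own filter. Nrarp, a feedback inhibitor of Notch, had control values of 203, 267 and 161 against Tbx1cko values of 116 and 132. Nrarp differed by -0.73, and by -0.54 without control replicate 2. The remaining targets are named after their values were seen. Gja4, the arterial connexin 37, had control values of 756, 1430 and 709 against Tbx1cko values of 603 and 613, and it differed by -0.59, or by -0.27 without control replicate 2. Hey1 differed by -0.45 (-0.17 without that library), the arterial transcription factor gene Sox17 by -0.44 (-0.23), Hes1 by -0.40 (-0.26), Myc by -0.38 (-0.45), Hey2 by -0.27 (-0.38) and Efnb2, the arterial ephrin, by -0.07 (-0.10). Gja5, the arterial connexin 40, was the 1 target of 11 with a positive difference, 0.22, with control values of 1043, 1309 and 1386 against Tbx1cko values of 1451 and 1438.

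The core machinery had medians nearer to 0. Rbpj had control values of 1493, 602 and 1577 normalised reads against Tbx1cko values of 1612 and 1531, with control replicate 2 the lowest library, so its log2 difference of 0.48 was 0.03 without that library. The coactivator gene Maml1 differed by -0.34 and the acetyltransferase gene Kat2b by 0.85, which became -0.22 and 0.20 without control replicate 2. Furin, which cuts the receptor precursor, differed by -0.40, and Adam10 and Adam17, which cut the ligand-bound receptor, by 0.75 and 0.34. These were -0.22, 0.11 and 0.09 without control replicate 2. The corepressor gene Spen differed by -0.63 and the demethylase gene Kdm5a by 0.57, and these were -0.28 and 0.0092 without that library.

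Genes listed for receptor sugars and for ligand uptake gave values in both directions, most of which shrank when control replicate 2 was left out. The Fringe genes Mfng and Lfng, whose enzymes shift receptor preference towards Delta ligands, differed by -0.37 and -0.22, and by -0.11 and -0.06 without that library. The O-glucosyltransferase gene Poglut1 differed by 0.31, and by 0.07 without it. Of the genes listed for ligand uptake, Neurl3 had control values of 3558, 2848 and 2825 against Tbx1cko values of 2488 and 2403, without overlap. Its difference was -0.32, and -0.37 without control replicate 2. Mib2 differed by -0.56 and Mib1, chosen after its values were seen, by 0.76, and without control replicate 2 by -0.19 and 0.13. Neurl1a had at most 15.8 normalised reads in any library and differed by -0.77.

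Of the genes for ligand-like proteins, Egfl7, an endothelial secreted factor, differed by -0.33 and the microfibril gene Mfap2 by -0.56, and without control replicate 2 by -0.02 and -0.25. Dlk2 differed by -0.68, a value that rests on control replicate 1, which had 31.6 normalised reads where the other libraries had 6.59 to 8.28. Receptor turnover genes included the Deltex relative Dtx3 at -0.72 and Fbxw7, the ligase subunit that marks the Notch intracellular domain for breakdown, at 0.45. These were -0.46 and 0.22 without control replicate 2. None of these passed the adjusted limma threshold.

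**Figure D5:**
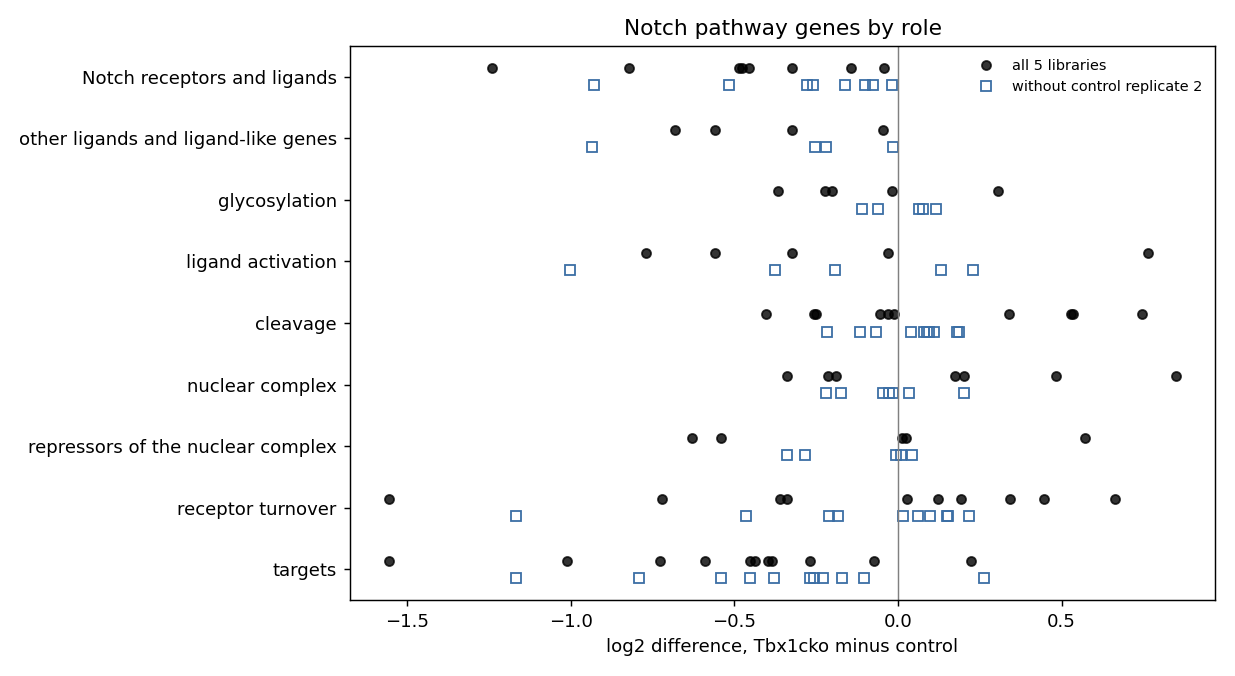
Log2 difference, Tbx1cko minus control, of each tested gene of the Notch pathway, in rows by role, with all 5 libraries (filled circles) and without control replicate 2 (open squares). Dtx1 appears in both the turnover and the target row. The targets, 10 of 11, lie left of 0, and the cleavage and nuclear rows draw towards 0 when control replicate 2 is left out.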

How the data were processed

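Polyadenylated RNA of 5 libraries was sequenced, 3 control and 2 Tbx1cko, grouped by their titles. The authors deposited a signal for each gene, namely its reads after scaling by a library size factor. The submitters' processing notes name GRCm38 (mm10), STAR 2.5.2b, DESeq, DESeq2 1.20.0 and R 3.5.1, and the sources used here give neither read counter nor strand setting. Whole reads were recovered for 100% of values (tolerance 0.01).

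Genes with a mean of at least 10 (14339) were fitted with limma 3.58.1 (R 4.3.3) on log2(normalised count + 1), on genotype alone, using a trended prior and 2-sided tests, and Benjamini-Hochberg adjusted p-values were held to 0.05. Fold changes are on this scale, which understates those of low genes. The test was also run on simulated counts, which carried no GC trend, unlike these libraries. Alternatives were edgeR 4.0.16 and DESeq2 1.42.0 on recovered reads, pseudocounts of 0.5 and 5, other filters, TMM, quantile normalisation, a robust prior, a replicate block, a loess correction for transcript GC (span 0.3; 96.0% of tested genes had a value) and leaving out each library. Scalings to marker genes, and joined exons as length, were added after the data were seen. Control pairs and the Tbx1cko pair differed beyond sampling noise (chi-square per degree of freedom at least 12.99), so each was counted as a sample, which does not show that they come from different mice. Marker lists also covered arterial, endocardial, lymphatic and epicardial cells. The arterial list had 9 of 12 members lower (median -0.26), the endocardial list 8 of 10 (-0.49), the lymphatic list 9 of 9 (-0.51), the pan-endothelial list 12 of 14 (-0.27), macrophages 2 of 10 (0.39), platelets 1 of 6 (0.23), T and B cells 2 of 7 (0.08), fibroblasts 4 of 8 (0.05) and cardiomyocytes 3 of 8 (0.08), and 1 epicardial gene was tested. Without control replicate 2, 8 of 12 arterial (median -0.14), 9 of 10 endocardial (-0.35) and 9 of 9 lymphatic markers (-0.81) were lower. For pan-endothelial markers it was 12 of 14 (-0.09), for macrophages 5 of 10 (0.08) and for platelets 0 of 6 (0.49). For T and B cells it was 4 of 7 (-0.004), for fibroblasts 7 of 8 (-0.14) and for cardiomyocytes 0 of 8 (0.34). The members and lists were chosen with earlier results of these data known. Members were always named. From the pathway list, up to 3 genes per role with the smallest unadjusted p were named, and from marker lists up to 3 with the highest level. A gene that this rule selects is not reported here.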

Additional observations from a re-analysis of the deposited data

How the results depend on the processing

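The count of genes called by limma, 0, became 3 without control replicate 2 (0 to 3 over the control libraries left out in turn) and 3 with the replicate block. On all 5 libraries DESeq2 called 4 and edgeR 0. Without control replicate 2, DESeq2 called 78 and edgeR 1. Of the members, Notch3 alone was ever called, at -0.96 with DESeq2 without control replicate 2. Its adjusted p ran from 8.12e-05 to 0.996 over its alternatives. Notch1, Notch3, Dll1 and Dll4 kept a negative difference in every alternative run. That of Notch2 was 0.15 with GC correction, 0.034 with GC correction without control replicate 2 and 0.19 relative to pan-endothelial markers. That of Notch4 was 0.11 with GC correction, with and without control replicate 2, and that of Jag2 was 0.033 with GC correction without it. That of Jag1 ran from -0.32 to 0.028 over the libraries left out, the latter without Tbx1cko replicate 1, and was 0.084 relative to pan-endothelial markers. The pathway median of -0.19 was -0.058 with GC correction and -0.036 with it and without control replicate 2, where edgeR gave -0.068 and DESeq2 -0.067. Leaving out each library moved it between -0.22 and -0.054 (-0.091 without Tbx1cko replicate 1). DESeq2 without control replicate 2 called 1 pathway gene, Heyl, beside 0.888% of the 8779 genes to which it gave an adjusted p. The log2 ratio of Jag2 to Jag1 differed by 0.19 after GC correction, and that of Dll1 to Dll4 by -0.018 to 0.080 over the libraries left out, negative without control replicate 2 (-0.018) and without Tbx1cko replicate 1. The cause of these changes was not tested. Replicates 1 and 2 share only a number in the labels. Deviations of same-numbered libraries correlated at -0.056 and -0.046, and those of different-numbered libraries at 0.056 and 0.046. With 2 Tbx1cko libraries, the deviations of 1 mirror those of the other, so these values are opposites by construction. With the replicate block the difference was -1.52 for Notch3 and -1.02 for Notch1, and no member was called. Replicate number 3 occurs only among controls, so these are the same differences as without control replicate 3, not a separate estimate.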

Other observations

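The nearest profiles to the other members that spanned at least 1 on the log2 scale over the 5 libraries were, for Notch1, Thsd4, Agap2, Bcl9l, Unkl and Zfp707, with root mean square log2 differences of 0.058 to 0.066. For Dll4 they were Stat5a, Syne2, Wdr24, Mpp2 and Timeless (0.022 to 0.034), and for Jag2 they were Selenbp1, Kctd10, Mapk8ip3, Caskin2 and Wipf3 (0.016 to 0.029). All 15 genes were highest in control replicate 2.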
